A study of Mus musculus with 6 samples.

Results

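The myeloid C-type lectin receptors are 10 genes, *Clec7a*, *Clec4e*, *Clec4d*, *Clec4n*, *Clec5a*, *Clec4a1*, *Clec4a2*, *Clec4a3*, *Clec12a* and *Clec10a*, and they were chosen by name. The choice was made with earlier results of these data known. All 10 were among the 55335 genes of the table and among the 13367 tested. The transcripts were measured in bone marrow-derived macrophages (BMDMs), which are marrow cells grown for 7 days with M-CSF, the growth factor of macrophages, at 25 ng/ml. The BMDMs of all 6 libraries carried the label of a WT genotype, and every culture held neutrophils, so none shows BMDMs alone. The neutrophils came from spinal cord lesions of mice at 3 days post-injury (dpi). They were *Cd177* WT in 3 libraries and *Cd177* KO in the other 3, and CD177 is a glycoprotein of the neutrophil surface. The mice were adult males, and the KO animals came from a commercial *Cd177*-/- line. After 24 h of co-culture the macrophages were isolated by fluorescence-activated sorting and sequenced in bulk. The comparison asks how the receptor transcripts of BMDMs differed between these 2 kinds of neutrophil.

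C-type lectin receptors are membrane proteins that bind sugars, lipids or proteins of microbes and of damaged cells. *Clec7a* (Dectin-1), *Clec4e* (Mincle), *Clec4d* (MCL), *Clec4n* (Dectin-2) and *Clec5a* (MDL-1) belong to the activating receptors, which carry a signal through their own tail or through the adaptors FcRγ and DAP12 to the kinase SYK and on to CARD9 and NF-κB. *Clec4a2* (DCIR) and *Clec12a* (MICL) carry an inhibitory motif that recruits phosphatases. Macrophages, monocytes, dendritic cells and neutrophils all use receptors of this family.

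Among these 10, the receptors named above as activating were lower and the others were higher in the KO-labelled libraries. Outside the 10, the FcRγ-coupled *Clec4b1* also rose, and the call of *Clec12a* was lost in 8 of 19 alternative settings. Of the 10 genes, 5 fell and 5 rose by limma with Benjamini-Hochberg adjustment over all tested genes (adjusted p under 0.05), and across all tested genes 10.5% fell and 27.1% rose. In each of the 5 that fell, every WT-labelled library lay above every KO-labelled library, an order that 14.4% of tested genes had. In each of the 5 that rose the order was the opposite, as in 37.5% of tested genes. With a fold above 2 and an unadjusted p under 0.05, 4 fell and 4 rose, against 4.43% and 6.68% of tested genes. The median log2 fold change was -0.01 over the 10 genes and 0.19 over all tested genes as deposited, so each change is also given relative to that shift.

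Of the 10 genes, 9 lie on chromosome 6 and 6 of these lie in 1 cluster with 3 other Clec4 genes, so the sequence before the start of those that changed most is shown first. The 250 bases before the annotated start, on the strand of the gene, are printed for the largest 2 falls and the largest 2 rises with an entry in RefSeq (GRCm38.p6), and capitals mark the motifs that were searched.
Clec4e: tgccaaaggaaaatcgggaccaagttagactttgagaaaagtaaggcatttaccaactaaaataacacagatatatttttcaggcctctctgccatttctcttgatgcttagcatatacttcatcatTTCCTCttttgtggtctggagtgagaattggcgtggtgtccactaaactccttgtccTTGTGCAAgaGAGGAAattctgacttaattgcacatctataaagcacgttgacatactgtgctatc
Clec7a: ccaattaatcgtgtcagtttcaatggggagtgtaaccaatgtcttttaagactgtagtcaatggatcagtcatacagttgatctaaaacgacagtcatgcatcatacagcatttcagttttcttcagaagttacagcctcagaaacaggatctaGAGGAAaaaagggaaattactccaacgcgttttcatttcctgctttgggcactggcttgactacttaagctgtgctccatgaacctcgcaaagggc
Clec4a3: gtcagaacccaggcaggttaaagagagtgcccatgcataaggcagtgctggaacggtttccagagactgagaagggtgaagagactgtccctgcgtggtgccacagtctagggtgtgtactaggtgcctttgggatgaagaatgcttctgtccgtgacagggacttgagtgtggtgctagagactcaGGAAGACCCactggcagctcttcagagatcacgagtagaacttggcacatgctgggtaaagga
Clec4a1: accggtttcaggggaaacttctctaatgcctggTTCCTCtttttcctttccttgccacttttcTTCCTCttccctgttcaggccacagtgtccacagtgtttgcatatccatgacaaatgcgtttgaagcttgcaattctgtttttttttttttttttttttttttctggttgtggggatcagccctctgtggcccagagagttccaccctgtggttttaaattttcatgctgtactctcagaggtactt
These stretches are chr6:123289872-123290121 on the minus strand, chr6:129472780-129473029 on the minus strand, chr6:122952265-122952514 on the plus strand and chr6:122921598-122921847 on the plus strand.

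The patterns of letters were searched on both strands, in 300 bases from 250 before to 50 after each start, and shares are of the 32851 promoters in the RefSeq table. GAGGAA, the core of sites for ETS factors such as PU.1, was added after the sequences had been read and was in 28.3% of promoters, and its longer form GAGGAAGT in 3.20%. The C/EBP pattern TTGCNNAA was in 10.8%, the AP-1 pattern TGANTCA in 7.81%, the NF-κB pattern GGGNNTTCC in 5.82% and the interferon regulatory factor pattern GAAANNGAA in 8.56%. *Clec4e* had the C/EBP pattern on the other strand at 66 bases before the start, with GAGGAA at 56 and, on the other strand, at 123. *Clec7a* had GAGGAA at 96 bases before its start. *Clec4a1* had GAGGAA on the other strand at 217 and 187 bases before the start, and *Clec4a3* had the NF-κB pattern on the other strand at 63. A later annotated start of *Clec4a3* had the same NF-κB match at 192 and GAGGAA on the other strand at 50. Among the promoters not printed, *Clec12a* held the C/EBP pattern at 140 and the AP-1 pattern at 213 bases before its start, with GAGGAA at 61 and, on the other strand, at 47. *Clec5a* had GAGGAA on the other strand at 81 and 55, *Clec4d* had GAGGAA at 3 places and the interferon regulatory factor pattern just after its start, and *Clec4a2* had the AP-1 pattern after its start. GAGGAA was thus at some annotated start of 7 of the 8 receptors with an entry. This count is per gene, while the share of 28.3% is per promoter. As the pattern was added after these sequences had been read, the count only describes them. *Clec4n* and *Clec10a* had no entry. A match is a description of letters.

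*Clec7a* encodes Dectin-1, the receptor for fungal β-glucan, and was the most abundant of the 10 transcripts with *Cd177* WT neutrophils. Its level was 577.5, 581.3 and 628.4 FPKM (fragments scaled to transcript length and library depth) in the WT-labelled libraries and 104.6, 112.9 and 111.9 FPKM in the KO-labelled ones. The groups did not overlap, and the means were 595.7 ± 28.3 and 109.8 ± 4.54 FPKM (SD, n = 3 each). The log2 fold change was -2.43 (SE 0.080, limma adjusted p = 3.71e-06), or -2.62 relative to the all-gene median. In rank among tested genes *Clec7a* went from 54 with *Cd177* WT neutrophils to 366 with *Cd177* KO neutrophils. GENCODE M21 places it at chr6:129461591-129472779 on the minus strand and types it as a polymorphic pseudogene.

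*Clec4e* encodes Mincle, a receptor for the mycobacterial cord factor and for a nuclear protein released by dying cells, which signals through FcRγ. It had the largest fall of the 10. The WT-labelled libraries held 10.3, 11.7 and 11.3 FPKM and the KO-labelled ones held 1.09, 1.22 and 1.33 FPKM. Every value with *Cd177* KO neutrophils was under 2 FPKM. The means were 11.1 ± 0.738 and 1.21 ± 0.120 FPKM (SD, n = 3 each), a ratio of 9.17, and the log2 fold change was -2.76 (SE 0.104, limma adjusted p = 6.33e-06), or -2.95 relative to the all-gene median.

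*Clec4d* encodes MCL, which pairs with Mincle at the cell surface. It stood at 498.9, 521.1 and 614.8 FPKM with *Cd177* WT neutrophils and at 165.4, 207.7 and 217.4 FPKM with *Cd177* KO neutrophils. It fell to 196.8 ± 27.7 FPKM (SD, n = 3) against 544.9 ± 61.5 FPKM. The log2 fold change was -1.47 (SE 0.136, limma adjusted p = 0.000334), or -1.66 relative to the all-gene median. Within the KO-labelled libraries, *Clec4d* lay above *Clec7a* in each, while their ranges overlapped in the WT-labelled ones.

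*Clec4n* encodes Dectin-2, the FcRγ-coupled receptor for fungal mannans. Levels were 234.9, 210.8 and 264.6 FPKM in the WT-labelled libraries and 93.7, 93.2 and 97.97 FPKM in the KO-labelled ones. The KO values lay close together, and none reached a WT value. The log2 fold change was -1.31 (SE 0.101, limma adjusted p = 0.000149), or -1.50 relative to the all-gene median.

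*Clec5a* encodes MDL-1, which signals through DAP12 and DAP10. It was the least changed of the 5 that fell, from 6.28, 6.48 and 7.24 FPKM to 3.81, 4.18 and 4.73 FPKM. The groups did not overlap, but the ratio of the means was 1.57, under the fold of 2. The log2 fold change was -0.60 (SE 0.111, limma adjusted p = 0.00608), or -0.79 relative to the all-gene median.

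*Clec4a2* encodes DCIR, which carries an inhibitory motif. It rose from 11.3, 12.0 and 15.8 FPKM in the WT-labelled libraries to 30.5, 32.4 and 33.9 FPKM in the KO-labelled ones. The lowest KO value was above the highest WT value. The log2 fold change was 1.29 (SE 0.134, limma adjusted p = 0.000524), or 1.10 relative to the all-gene median. By sequence, 6.69% of its 50-base stretches also occurred in other genes, chiefly *Clec4a4* and *Clec4b1*, and how reads of such stretches were assigned is not given in the sources used here.

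*Clec12a* encodes MICL, an inhibitory receptor for uric acid crystals. Its values were 14.8, 15.3 and 19.97 FPKM against 22.4, 25.2 and 27.3 FPKM. It had the smallest rise, with a log2 fold change of 0.58 (SE 0.139, limma adjusted p = 0.0172), or 0.39 relative to the all-gene median. This call did not hold with median-of-ratios scaling (log2 fold change 0.37, limma adjusted p = 0.103), with upper-quartile scaling (adjusted p = 0.133), or without WT replicate 1 (0.0590), WT replicate 2 (0.0570), KO replicate 2 (0.0591) or KO replicate 3 (0.0568).

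*Clec4a1* and *Clec4a3* belong to the DCIR family. *Clec4a1* was at 16.9, 17.7 and 17.3 FPKM in the WT-labelled libraries and at 84.8, 80.8 and 89.7 FPKM in the KO-labelled ones. Its log2 fold change was 2.27 (SE 0.077, limma adjusted p = 4.22e-06), or 2.08 relative to the all-gene median. *Clec4a1* thereby reached a level near that of *Clec4n*, whose lowest KO value was 93.2 FPKM. *Clec4a3* was at 4.52, 5.57 and 7.21 FPKM and at 34.8, 35.1 and 40.5 FPKM. On this scale it had the largest rise of the 10, with a log2 fold change of 2.59 (SE 0.164, limma adjusted p = 6.06e-05), or 2.40 relative to the all-gene median.

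*Clec10a* encodes MGL1, a receptor that binds galactose-type sugars and takes them up. The gene was near the lower limit in the WT-labelled libraries, at 0.510, 0.497 and 0.569 FPKM, and reached 4.75, 4.41 and 4.96 FPKM in the KO-labelled ones. The ratio of the means was 8.96. The log2 fold change, which a pseudocount of 0.5 FPKM makes smaller for low genes, was 2.34 (SE 0.106, limma adjusted p = 1.40e-05), or 2.16 relative to the all-gene median. Its 50-base stretches were shared with other genes in 9.02%, mostly with the neighbouring *Mgl2*, which was not called (0.459 ± 0.247 and 0.745 ± 0.223 FPKM).

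**Figure D1:**
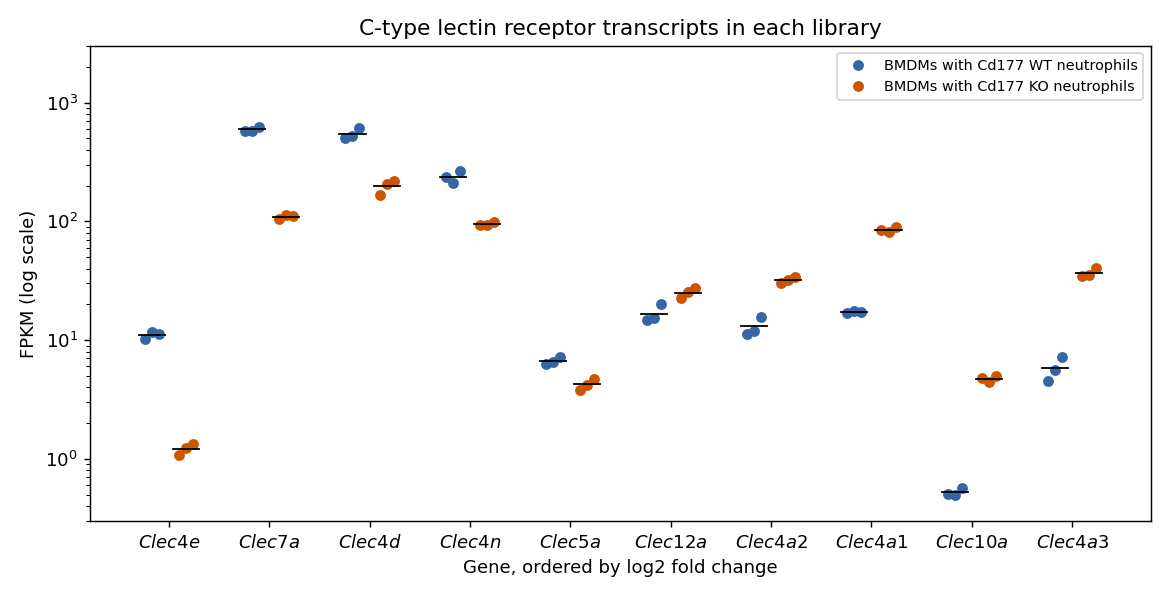
Level of each of the 10 receptor transcripts in every library, in FPKM on a log axis, with genes ordered by log2 fold change. Points are libraries and bars are group means of 3. *Clec4e* falls from 11.1 to 1.21 FPKM at the left, *Clec4a3* rises from 5.77 to 36.8 FPKM at the right, and no gene has overlapping groups.

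**Figure D2:**
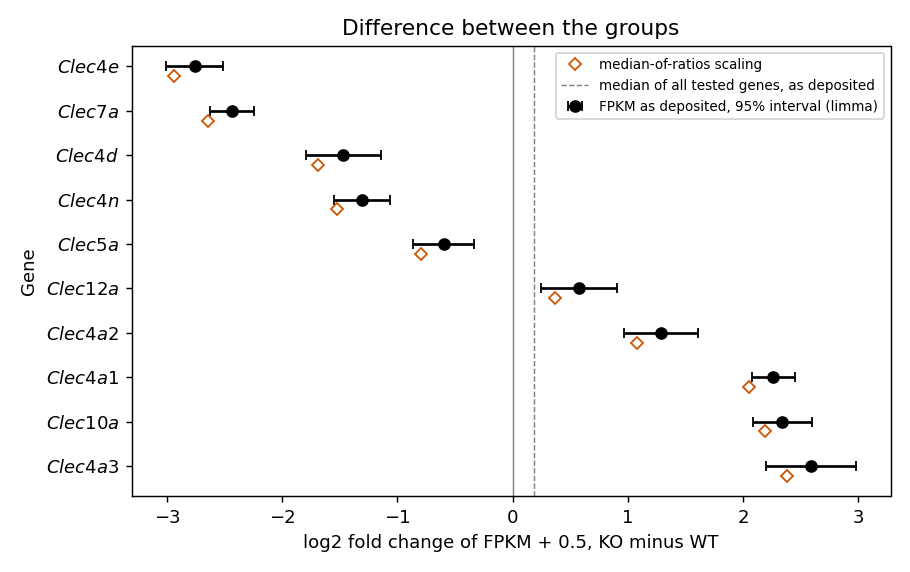
Log2 fold change of FPKM + 0.5 for each receptor, KO minus WT, with the 95% interval from limma (filled points) and the value after median-of-ratios scaling (open diamonds). The dashed line is the all-gene median of 0.19. *Clec12a* at 0.58 lies closest to that line, and *Clec4e* at -2.76 lies farthest to the left.

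The summed level of the 10 receptors was lower in the KO-labelled libraries, and its make-up differed. The sum was 1376, 1382 and 1587 FPKM in the WT-labelled libraries and 545.7, 597.2 and 629.7 FPKM in the KO-labelled ones, with no overlap (exact permutation p = 0.1, two-sided, the smallest that 3 against 3 allows). The 5 genes that fell made up 1395 ± 114 FPKM of it with *Cd177* WT neutrophils and 407.0 ± 34.1 FPKM with *Cd177* KO neutrophils (SD, n = 3 each). The 5 that rose went from 53.3 ± 6.75 to 183.8 ± 10.8 FPKM, a difference smaller in FPKM than that of the genes that fell. *Clec7a* took 41.2 ± 1.40% of the sum with *Cd177* WT neutrophils and 18.6 ± 0.737% with *Cd177* KO neutrophils. *Clec4d* took 37.6 ± 1.24% and 33.2 ± 2.52%. The share of *Clec4n* was 16.3 ± 0.960% and 16.1 ± 0.910%, a gap smaller than its spread. *Clec4a1* went from 1.20 ± 0.0958% to 14.4 ± 1.01%, and *Clec4a3* from 0.395 ± 0.0635% to 6.23 ± 0.298%.

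**Figure D3:**
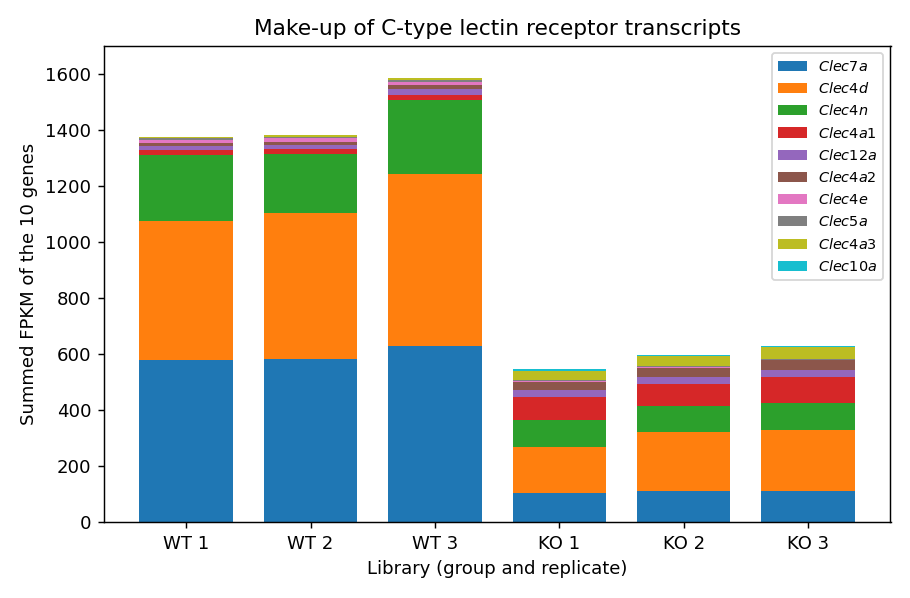
Summed FPKM of the 10 receptors in each library, split by gene (stacked bars, linear axis from 0). The 3 bars labelled WT reach 1376 to 1587 FPKM and consist mainly of *Clec7a*, *Clec4d* and *Clec4n*, and the 3 labelled KO reach 545.7 to 629.7 FPKM with a visible *Clec4a1* part.

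The order of the levels also differed. In the WT-labelled libraries the order was *Clec7a*, *Clec4d*, *Clec4n*, *Clec4a1*, *Clec12a*, *Clec4a2*, *Clec4e*, *Clec5a*, *Clec4a3* and *Clec10a*, and the ranges of 5 neighbouring pairs overlapped. These were *Clec7a* with *Clec4d*, *Clec4a1* with *Clec12a*, *Clec12a* with *Clec4a2*, *Clec4a2* with *Clec4e* and *Clec5a* with *Clec4a3*. In the KO-labelled ones it was *Clec4d*, *Clec7a*, *Clec4n*, *Clec4a1*, *Clec4a3*, *Clec4a2*, *Clec12a*, *Clec10a*, *Clec5a* and *Clec4e*, with overlap between *Clec10a* and *Clec5a* alone. *Clec4e* went from the seventh place to the last. Within groups, replicate 3 was the highest for 8 of the 10 genes in the WT-labelled ones and for 9 of 10 in the KO-labelled ones, and replicate 3 also had the highest column sum in each group.

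Of the 10 genes, 6 lie in the Clec4 cluster of chromosome 6, in which the first and last of them start 368 kb apart. *Clec4a1* starts the series at chr6:122921848-122934619, followed by *Clec4a3* (chr6:122952515-122969875), *Clec4a2* (chr6:123106428-123143999), *Clec4n* (chr6:123229843-123247021), *Clec4d* (chr6:123262111-123275265) and *Clec4e* (chr6:123281789-123289870), in GRCm38 coordinates from GENCODE M21. The 3 genes at the *Clec4a1* end rose and the 3 at the *Clec4e* end fell. The cluster also holds *Clec4a4*, *Clec4b1* and *Clec4b2*, of which *Clec4b2* was too low to test. *Clec4b1* (DCAR), an FcRγ-coupled receptor, was at 0.432, 0.553 and 0.556 FPKM in the WT-labelled libraries and at 4.11, 4.38 and 4.44 FPKM in the KO-labelled ones. It rose by a log2 fold change of 2.25 (SE 0.111, limma adjusted p = 2.04e-05), so not every activating receptor of the cluster fell. *Clec4a4* was listed at 0 in 2 of the WT-labelled libraries and at 0.215 FPKM in the other, and reached 0.675, 1.29 and 1.19 FPKM in the KO-labelled ones (limma adjusted p = 0.00377). Thus 5 of the 8 tested Clec4 genes rose and 3 fell, where 27.1% and 10.5% of all tested genes did. *Clec4a4*, with a WT mean of 0.0715 FPKM, passed the filter of 0.5 FPKM only through the KO-labelled libraries. It entered this count only through the group where it was high. Those that rose run up to *Clec4a2* and those that fell begin at *Clec4n*. The starts of these 2 lie 123.4 kb apart, with the untested *Clec4b2* between them. *Clec4a4* and *Clec4b1* were added after their values were seen, and both share 50-base stretches with *Clec4a2*. Of the tested genes next to the cluster, *C3ar1* (156.5 and 176.8 FPKM), *Necap1* (15.1 and 14.7 FPKM) and *Foxj2* (6.505 and 8.87 FPKM) were not called, and the low *Slc2a3* rose from 0.525 to 1.34 FPKM (limma adjusted p = 0.00354).

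**Figure D4:**
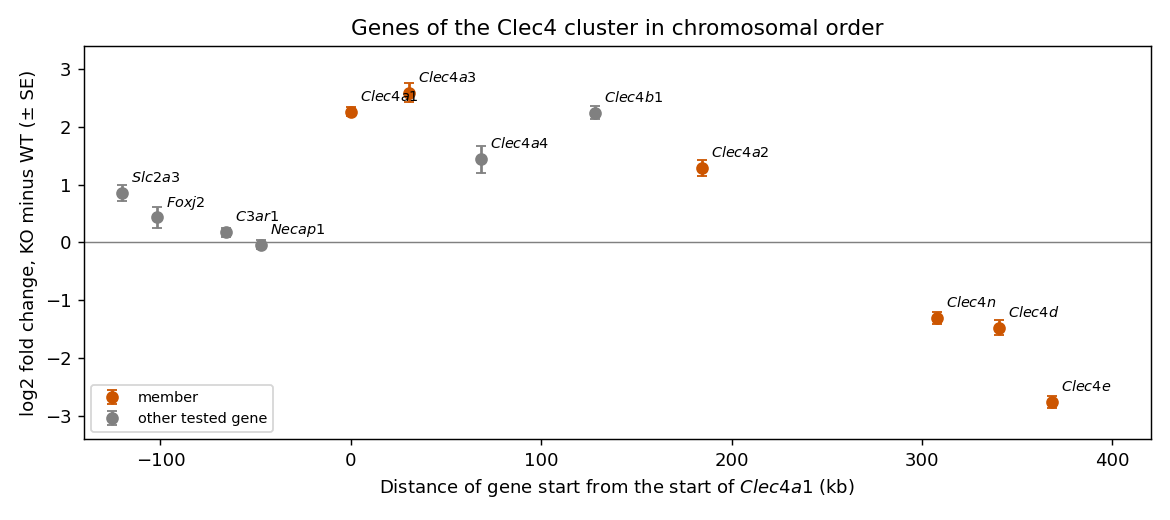
Log2 fold change, KO minus WT, of the tested genes in and beside the Clec4 cluster against the distance of each gene start from that of *Clec4a1*, in kb (points with SE bars, orange for the 6 receptors, grey for other genes). Values from *Clec4a1* to *Clec4a2* lie between 1.29 and 2.59, and those from *Clec4n* to *Clec4e* between -1.31 and -2.76.

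Differences between neighbours in the cluster were read within each library as the log2 ratio of FPKM + 0.5, which makes differences smaller for a low gene such as *Clec4e*. The ratio of *Clec4n* to *Clec4a2* was 4.32, 4.08 and 4.03 in the WT-labelled libraries and 1.60, 1.51 and 1.52 in the KO-labelled ones. The difference was -2.60 (exact permutation p = 0.1, two-sided, 0.17 after Benjamini-Hochberg adjustment over 5 pairs). As every WT value was above every KO value in *Clec4n* and below it in *Clec4a2*, this ratio had to separate the groups. Its p-value was therefore fixed in advance and adds nothing to the rows of the 2 genes. *Clec4e* against *Clec4d* differed by -1.29 with the same p-values, and the ratio was lower in every KO-labelled library than in any WT-labelled one. For *Clec4d* against *Clec4n* the difference was -0.16 (exact permutation p = 0.3), and their ratios overlapped between the groups. With 3 against 3 no such test can go below 0.1.

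*Clec12a* and *Clec7a* start 130.1 kb apart in a second cluster of lectin genes on chromosome 6, at chr6:129342691-129365303 and chr6:129461591-129472779. *Clec12a* rose and *Clec7a* fell. *Olr1* encodes the oxidised LDL receptor LOX-1, and its start lies 34.4 kb from the start of *Clec7a*. *Olr1* had 16.0, 17.5 and 14.6 FPKM in the WT-labelled libraries and 0.261, 0.217 and 0.167 FPKM in the KO-labelled ones (log2 fold change -4.53, SE 0.112, limma adjusted p = 1.86e-06). *Gabarapl1*, farther along, was not called (62.8 and 65.9 FPKM). *Clec5a* stands alone on the same chromosome at chr6:40574894-40585821, and *Clec10a* lies at chr11:70156197-70170834. No exon of the 10 genes overlapped an exon of another gene.

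Of 32 other membrane C-type lectins, 12 were tested, 2 fell and 5 rose, where 10.5% and 27.1% of all tested genes did, with a median log2 fold change of 0.39 over the tested ones. *Mrc1*, the mannose receptor, rose from 28.3, 29.4 and 26.3 FPKM to 225.5, 223.4 and 213.4 FPKM (log2 fold change 2.96, SE 0.079, limma adjusted p = 2.08e-06). *Cd93* rose by 1.72, from 19.8 ± 5.73 to 65.1 ± 11.4 FPKM, and *Colec12*, a scavenger receptor, was 0.44 higher on the log2 scale. *Clec2d*, the other one beside *Olr1* that fell, had 38.1 ± 9.26 and 25.4 ± 0.817 FPKM (limma adjusted p = 0.0371), a call lost without WT replicate 2 (0.0657), KO replicate 1 (0.0880), KO replicate 2 (0.0976) or KO replicate 3 (0.0958). The call of *Colec12* was lost with median-of-ratios scaling (adjusted p = 0.0784), and 5 other lectins were not called.

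The 2 genes of the main adaptors did not fall with the activating receptors by the test. *Fcer1g*, which encodes FcRγ, was at 533.3, 488.3 and 625.9 FPKM in the WT-labelled libraries and at 556.6, 564.7 and 569.8 FPKM in the KO-labelled ones (log2 fold change 0.05, SE 0.108, limma adjusted p = 0.772), and with median-of-ratios scaling the log2 fold change was -0.17 (adjusted p = 0.319). *Tyrobp*, which encodes DAP12, rose from 569.9 ± 61.7 to 771.3 ± 58.8 FPKM (log2 fold change 0.44, limma adjusted p = 0.0211), a call that did not hold with median-of-ratios scaling (adjusted p = 0.199), without a filter (0.0930), or without WT replicate 1 (0.0761), WT replicate 2 (0.0680), KO replicate 1 (0.0847) or KO replicate 2 (0.0872). *Syk* was at 45.6 ± 9.37 and 34.5 ± 3.59 FPKM and did not pass the test (limma adjusted p = 0.120). It did pass with median-of-ratios scaling (log2 fold change -0.60, adjusted p = 0.0297) and upper-quartile scaling (-0.60, adjusted p = 0.0225). The same held with the replicate block (adjusted p = 0.0211) and without WT replicate 3 (-0.57, adjusted p = 0.00651). *Card9* rose from 10.6 ± 0.820 to 16.8 ± 1.03 FPKM (log2 fold change 0.64, limma adjusted p = 0.00249). A p that misses the threshold does not show that the levels were equal.

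All 40 genes of the signalling list were tested, 2 fell and 9 rose, where 10.5% and 27.1% of all tested genes did, and the median log2 fold change was 0.17 against 0.19 over all genes. *Malt1*, the partner of CARD9 and BCL10, fell from 2.15 ± 0.385 to 0.973 ± 0.124 FPKM. The largest rises were in *Nfatc2* (1.28 ± 0.490 to 6.35 ± 1.30 FPKM), *Vav2* (3.08 ± 0.443 to 8.24 ± 0.530 FPKM), *Map3k14* (2.04 ± 0.414 to 4.11 ± 0.473 FPKM) and *Inpp5d* (19.7 ± 4.32 to 34.3 ± 3.82 FPKM). *Inpp5d* and *Ptpn6*, the latter up from 42.2 ± 3.58 to 67.4 ± 1.54 FPKM, encode SHIP1 and SHP-1, which are among the phosphatases that inhibitory motifs recruit. *Ptpn11*, which encodes the phosphatase SHP-2, was not called (19.4 ± 3.51 and 21.1 ± 2.04 FPKM, limma adjusted p = 0.553). It was not followed through the alternatives. With median-of-ratios scaling 6 of the 40 fell and 6 rose.

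Genes that activating C-type lectins are known to induce were counted from a list of 16, of which 12 were tested, 8 fell and 1 rose, where 10.5% and 27.1% of all tested genes did. Their median log2 fold change was -2.14. The list was chosen with earlier results of these data known, so its counts only describe it. Any part of the receptors in these changes was not tested. *Cxcl2*, a neutrophil attractant, went from 48.6 ± 4.93 to 1.73 ± 0.244 FPKM and *Ptgs2*, the inducible cyclooxygenase, from 97.1 ± 2.85 to 8.17 ± 0.480 FPKM. *Il1b* fell from 8.75 ± 1.44 to 0.566 ± 0.0680 FPKM, and *Nos2* was listed at 0 in 2 of the KO-labelled libraries and at 5.98, 6.86 and 3.94 FPKM in the WT-labelled ones. *Il10* rose from 0.116 ± 0.0716 to 1.34 ± 0.0936 FPKM. *Ccl3*, *Egr2* and *Egr3* were not called, and *Egr2* was at 2.58 FPKM in KO replicate 1 against 14.5 and 13.9 FPKM in the other two.

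**Figure D5:**
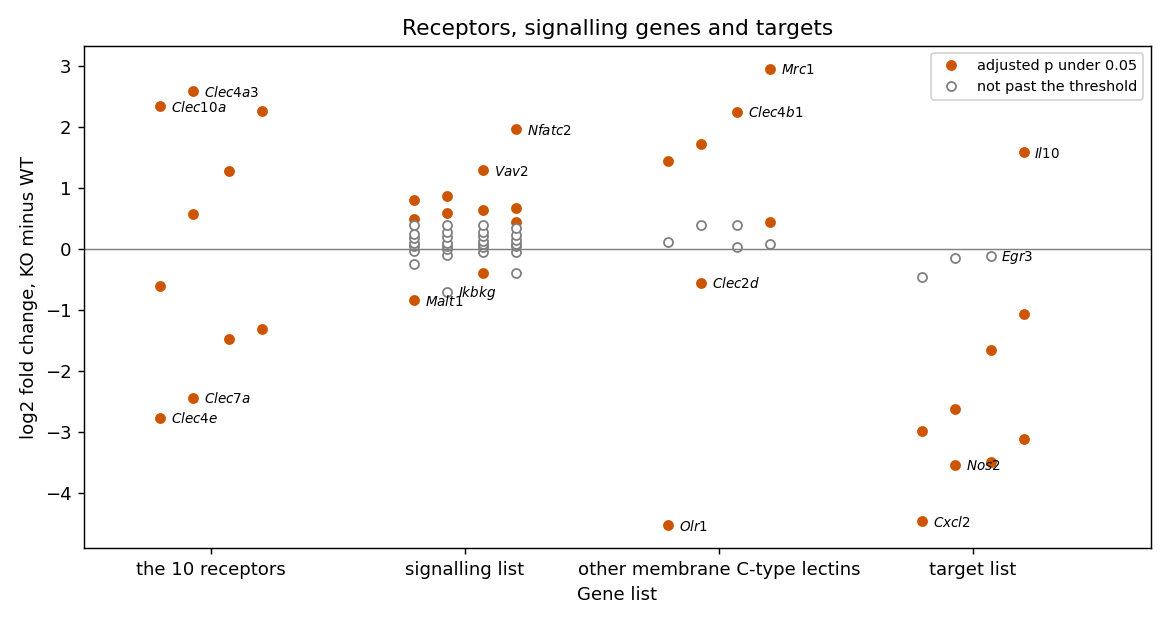
Log2 fold change, KO minus WT, of each tested gene in 4 lists (10 receptors, 40 signalling genes, 12 other membrane lectins, 12 targets), with filled points for adjusted p under 0.05 and open points for the rest; the 2 lowest and 2 highest of each list are named. The signalling genes lie around a median of 0.17, while the targets have a median of -2.14.

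Other cells could hold these transcripts too, and in bulk RNA fewer cells of a type cannot be told apart from less RNA per cell. The macrophage markers *Csf1r*, *Cd68* and *Lyz2* were present and were not called, although *Lyz2* was higher without WT replicate 3 (log2 fold change 0.44, adjusted p = 0.00658), and the list of 8 summed to 6688 to 8048 FPKM in the WT-labelled libraries and 7283 to 7941 FPKM in the KO-labelled ones. Of that list, *Cd14* (log2 fold change -3.33) and *Fcgr1* (-1.83) fell, and *Mertk* (0.72, limma adjusted p = 0.0166) and *Adgre1* (0.30, adjusted p = 0.0449) rose. Neither rise held with median-of-ratios scaling (adjusted p = 0.0532 and 0.516), that of *Mertk* was lost without KO replicate 1 (0.0621) or 2 (0.0618), and that of *Adgre1* without any 1 of the libraries other than WT replicate 3 (0.0599 to 0.154). Of 16 neutrophil markers 12 were tested, 10 rose and 1 fell, where 27.1% and 10.5% of all tested genes did. The marker that fell was *Mmp8*, from 21.9 ± 2.51 to 9.80 ± 0.488 FPKM. The summed level of the 16 was 202.0 to 262.0 FPKM with *Cd177* WT neutrophils and 557.5 to 572.3 FPKM with *Cd177* KO neutrophils. *Ly6g*, the marker used to gate neutrophils out, was listed at 0 in every WT-labelled library and at 0.660, 0.547 and 0.403 FPKM in the KO-labelled ones. The 5 receptors that rose moved with the neutrophil list and the 5 that fell moved against it, and its part in the result was not tested.

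*Cd177* itself ran against the labels, at 0.544, 0.309 and 0.521 FPKM in the WT-labelled libraries and 1.79, 1.84 and 2.28 FPKM in the KO-labelled ones (limma adjusted p = 0.000827). *Cd177* belongs to the neutrophil list, most of which rose. The BMDMs carry an intact gene, and which cells held this RNA was not tested. Whether the labels fit the neutrophils' genotype therefore stays unchecked, and every direction here rests on the labels. None of 8 dendritic cell markers was tested, with *Flt3* listed at 0 throughout and sums of 0.396 to 0.571 FPKM and 0.297 to 0.606 FPKM. Of 5 monocyte markers 4 were tested, 2 rose (*Ccr2*, *Ly6c2*) and 2 fell (*Plac8*, *Nr4a1*, the first not without KO replicate 1, 2 or 3), and the sums were 15.2 to 18.6 and 13.4 to 14.7 FPKM. Of 6 B cell markers *Cd79b* and *Ebf1* rose, and of 6 T and NK cell markers *Cd4* rose, while *Cd3e* and *Cd3g* stayed under 0.1 FPKM. Across all tested genes 27.1% rose and 10.5% fell.

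The low values of the libraries implied a depth of 17.5 to 20.1 M fragments. This is a rough estimate, as only 38.5 to 43.3% of low values lay near a whole number of fragments. Correlations of log2 values were 0.967 to 0.985 within groups and 0.905 to 0.917 between them. Nothing in the labels says whether replicates came from separate animals or cultures, so the p-values measure only the spread between these samples.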

How the data were processed

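RNA was measured in 6 libraries of sorted BMDMs, 3 co-cultured with *Cd177* WT and 3 with *Cd177* KO neutrophils. Groups and replicate numbers were taken from the sample titles and treatment labels. The authors deposited FPKM values per gene. The submitters' processing notes name fastp 0.17.1, HISAT2 2.1.0, DESeq2 1.18.1 and R 3.4.3. The genome build, annotation and quantifier are not given in the sources used here, and FPKM were not counts, so no count test was run: whole reads could be read back, to a tolerance of 0.1, for 38.5 to 43.3% of low values. The labels and the methods of the study name different extraction and library kits.

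The 13367 genes that averaged 0.5 FPKM or more across the libraries were tested on log2(FPKM + 0.5) with limma 3.58.1 (trend) in R 4.3.3, KO minus WT, and p-values were adjusted by Benjamini-Hochberg over all of them. A gene could pass this filter through the group where it was high, as *Clec4a4* and *Il10* did through the KO-labelled libraries. A fold change on this scale understates low genes. In simulated data on 13367 genes, 59 of 100 genes changed by 1 on the log2 scale were recovered and 92 of 100 changed by 2, with 12 false calls. The simulation had independent noise, no shift over all genes and far fewer changed genes than the 1408 and 3619 called here. Its rates therefore need not hold for this comparison. The members and lists were chosen with earlier results of these data known. Named were all 10 receptors, the adaptors, *Syk* and *Card9*, up to 4 rises and 4 falls in each list, and the cell type markers. *Clec4a4*, *Clec4b1*, the genes beside the clusters, *Mgl2*, *Ptpn6* and *Ptpn11* were added after their values were seen. Some listed genes are not reported here. Positions and 50-base stretches came from GENCODE M21, promoters from RefSeq.

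Alternatives were pseudocounts of 0.1 and 1, other filters, other scalings, TPM, quantile normalization, robust variance, a replicate block, leaving out each library, an adjusted p of 0.01 and a fold of 2 with unadjusted p under 0.05.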

Additional observations from a re-analysis of the deposited data

How the results depend on the processing

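No call of a gene named here turned its direction under an alternative run for it. Of the 10 receptors, 8 kept their call in every alternative in which they were tested (*Clec10a* was not tested at a mean of at least 5 FPKM). *Clec5a* lost it only at a fold above 2, and *Clec12a* in 8 of 19 alternatives, with log2 fold changes between 0.37 and 0.71. FPKM carry no stated depth, and 3 libraries a group limit the precision. In the signalling list 2 genes fell, against 1 without a filter, at a mean of at least 5 FPKM, as TPM and at an adjusted p under 0.01, 4 with quantile normalization, 5 with upper-quartile and 6 with median-of-ratios scaling (where 6 rose), 0 at a fold above 2, and 1 to 3 when each library was left out in turn. Of the 9 that rose, 5 remained at an adjusted p under 0.01 and 2 at a fold above 2. For other membrane lectins, 1 fell at an adjusted p under 0.01 and at a fold above 2, and 1 to 2 when a library was left out; 8 rose without a filter and 3 at a mean of at least 5 FPKM. In the target list, 3 fell and 0 rose at a mean of at least 5 FPKM, and 0 rose at a mean of at least 1 FPKM. Over all genes 1408 fell and 3619 rose, against 2215 and 2156 with median-of-ratios scaling, 2152 and 2122 with upper-quartile scaling, 922 and 2007 at an adjusted p under 0.01, and 592 and 893 at a fold above 2, and 1756 rose at a mean of at least 5 FPKM. Among genes that were not called, the log2 fold change turned with median-of-ratios and upper-quartile scaling in *Fcer1g* (-0.17 and -0.17), *C3ar1* (-0.039 and -0.038), *Gabarapl1* (-0.15 and -0.14), *Csf1r* (-0.10 and -0.10) and *Cd68* (-0.058 and -0.057), and with 1 library left out in *Fcer1g* (-0.035 to 0.14 over the 6 libraries), *Ccl3* (-0.24 to 0.010), *Egr2* (-0.85 to 0.29) and *Egr3* (-0.32 to 0.098). The cause of these differences was not tested.

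With the replicate number as a block, 5 receptors fell and 5 rose, and 1681 of all genes fell and 4253 rose. Whether same-numbered libraries shared a batch is not in the labels and was not tested. Their deviations correlated by 0.116, 0.036 and 0.264, and not every library correlated best with its own number. The replicate 3 pair had the highest value. WT replicate 3 correlated by -0.174 and -0.140 with KO replicates 1 and 2, and KO replicate 3 by -0.233 and -0.131 with WT replicates 1 and 2.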
